A study of Mus musculus with 5 samples.

Results

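Genes that act in G2 and mitosis were followed in the mouse medial ganglionic eminence (MGE), a germinal zone of the embryonic ventral forebrain that gives rise to many cortical interneurons, with and without the homeodomain transcription factors Dlx1 and Dlx2. The set held 42 genes chosen by name. A gene was represented by its brightest probe set, taken by mean log2 level over all arrays, among the probe sets with a single gene symbol. By this rule 41 of the 42 had a probe set, of 18193 genes named on the array. The cyclin gene Ccnb1 had no such probe set and was not analysed here. All 41 were among the 11063 genes bright enough to test, and each lay above the intensity cutoff (4.80 log2) in every array, so none was tested only because it was bright in some of the groups.

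Per the labels, all RNA came from mouse embryos at stage E15.5 and from the rostral MGE, from its ventricular and subventricular zones, where progenitors divide. Dissected tissue gave 1 array from wild-type (WT) embryos and 2 arrays from Dlx1/2 mutants, whose titles write the genotype as -/-. Primary neuronal cultures of the same zones gave 1 WT and 1 mutant array. The WT tissue array has +/ with no second allele in its title and WT in its description. The labels do not give the mutant allele, the days in culture, the number of embryos, or whether separate embryos were used for each of the mutant tissue arrays, so p-values rest on a spread that may be technical.

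The targeted genes followed the labels. The deposited signal, a linear brightness per probe set, of Dlx1 was 3278 in the WT tissue array, 2.80 and 0.921 in the mutant tissue arrays, 603 in cultured WT cells and 1.26 in cultured mutant cells, and that of Dlx2 was 1069, 18.7, 11.7, 331 and 21.7 in the same order. Of 6 forebrain and MGE markers listed, 4 had a named probe set (Nkx2-1, Lhx6, Lhx8 and Gsx2). Their summed level was 3073 in the WT tissue array, 1423 and 1465 in the mutant tissue arrays, 1008 in cultured WT cells and 451 in cultured mutant cells. These markers did not move one way in mutant tissue: Lhx8 and Lhx6 fell (−3.24 and −0.54), Gsx2 rose (0.69), and Nkx2-1 differed by 0.71 without passing (adjusted p = 0.16 in limma). Markers of red blood cells and endothelium were much lower in culture, with summed levels of 9416 to 10423 in tissue against 20.6 and 21.9 in culture for the former, and of 949 to 1098 against 175 and 221 for the latter.

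Entry into mitosis is driven by cyclin A2 and B-type cyclins bound to the kinase Cdk1, which Cdc25 phosphatases activate. Aurora and Polo-like kinases then build the spindle, the spindle checkpoint holds anaphase until kinetochores are attached, and the ubiquitin ligase called the anaphase-promoting complex ends mitosis once Cdc20 activates it. Transcripts of most of these proteins accumulate late in the cycle and are low in cells that have left it, so they are widely used as markers of dividing cells. In the embryonic MGE, dividing progenitors line the ventricle and their postmitotic daughters migrate away.

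Promoters of such genes are known for a CCAAT box, bound by NF-Y, and for the cell cycle genes homology region (CHR), bound by the MuvB complex, which joins either the repressive DREAM complex or Mybl2 and Foxm1. RefSeq promoters (GRCm38.p6, 250 bases before to 50 after the start) matched 35 of the 42 genes, 3 of them with more than 1 promoter, 38 promoters in all. The stretches of 120 bases before the start of 4 members are shown, because 3 of these genes fell in mutant tissue and the fourth, Bub3, differed little there. They are Cdc20 (chr4:118437344-118437463, minus strand), Cdk1 (chr10:69352913-69353032, minus strand), Ube2c (chr2:164769809-164769928, plus strand) and Bub3 (chr7:131560250-131560369, plus strand), each read 5′ to 3′ on the strand of its gene. Capitals mark the CCAAT box (CCAAT or, on the other strand, ATTGG) and the CHR letters (TTTGAA, its reverse complement TTCAAA, or TTCGAA). No overlap between the marked motifs occurs in these stretches.
Cdc20: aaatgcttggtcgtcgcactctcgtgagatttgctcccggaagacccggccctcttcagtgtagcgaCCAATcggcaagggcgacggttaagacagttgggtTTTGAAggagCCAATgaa
Cdk1: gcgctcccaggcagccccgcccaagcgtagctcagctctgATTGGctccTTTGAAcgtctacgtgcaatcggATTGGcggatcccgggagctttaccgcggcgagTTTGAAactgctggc
Ube2c: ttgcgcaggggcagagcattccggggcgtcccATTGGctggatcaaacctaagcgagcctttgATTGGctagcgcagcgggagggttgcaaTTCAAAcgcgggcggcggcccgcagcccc
Bub3: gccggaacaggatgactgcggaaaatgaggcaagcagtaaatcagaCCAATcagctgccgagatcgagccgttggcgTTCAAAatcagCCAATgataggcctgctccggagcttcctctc
Each of the 4 stretches holds 2 CCAAT boxes, and all but that of Cdk1 hold 1 CHR match. In Cdc20 the CHR match begins at −18, counted from the start, and lies between the CCAAT boxes at −53 and −8. Cdk1 has CHR matches at −71 and −15. Bub3 has the same kinds of match as the other 3 genes.

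**Figure D1:**
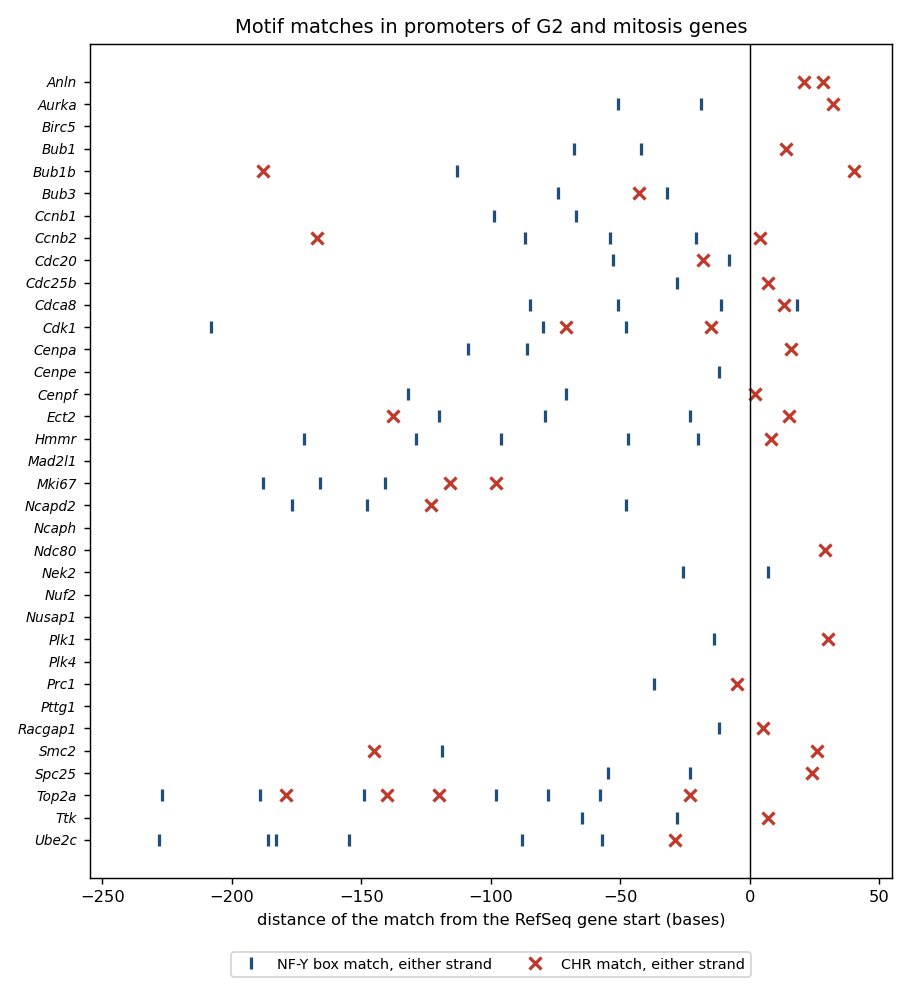
Positions of matches to the CCAAT box (blue bars, drawn as NF-Y box) and to the CHR (red crosses) in the RefSeq promoters of 35 G2 and mitosis genes, from 250 bases before to 50 bases after the start (black line), with 1 promoter drawn per gene; the x axis is in bases. Many genes show blue bars upstream and a red cross near the start, while Birc5, Mad2l1, Ncaph, Nuf2, Nusap1, Plk4 and Pttg1 have no match in this window.

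Over the whole window of 300 bases, 29 of 38 promoters of these genes held a CCAAT box (76.3%), against 37.4% of all 32851 promoters. A CHR match was found in 28 of 38 (73.7%, against 19.2% of all), and both in 26 (68.4%, against 7.52% of all). At least 2 CCAAT boxes were found in 21 of 38 (55.3%, against 11.7% of all). These are letter matches, not measured binding sites, and no test was made. Genes with matches, such as Cdc20, and genes without, such as Nuf2, were among those lower in mutant tissue. Whether matches relate to the size of the tissue difference was not tested.

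In tissue, G2 and mitosis genes were lower in the mutants as a body. Of 41 members 37 fell and 0 rose (limma, Benjamini-Hochberg adjusted p below 0.05 over all genes tested), against a background of 6.70% of genes called lower and 8.59% called higher. The median difference, mutant minus WT, was −0.84 on the log2 scale, while that of all genes tested was 0.00. The members ranged from −1.23 to −0.02. Both mutant arrays lay below the WT array for 41 of 41 members, against 40.2% of all genes tested. A fall of at least 2-fold was fitted for 6 of 41 (1.92% of all genes), and an unadjusted p under 0.05 was found for 39 of 41 (29.0%). The first mutant array alone had a median difference from WT tissue of −0.80 and the second of −0.89, and the mutant arrays differed from each other by a median of 0.095 (log2) over the members and 0.136 over all genes. In these bulk samples, fewer dividing cells and less RNA per cell cannot be told apart.

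The calls rest on how the spread was modelled. With 1 WT array and 1 residual degree of freedom, the variance prior supplies nearly all of the information. Without an intensity trend in that prior, 0 of 41 members passed (lowest adjusted p = 0.11, 37 with an unadjusted p under 0.05), and with dim genes tested too, 0 passed (lowest adjusted p = 0.057, 34 with an unadjusted p under 0.05). Averaging all probe sets of a gene left 21 called.

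**Figure D2:**
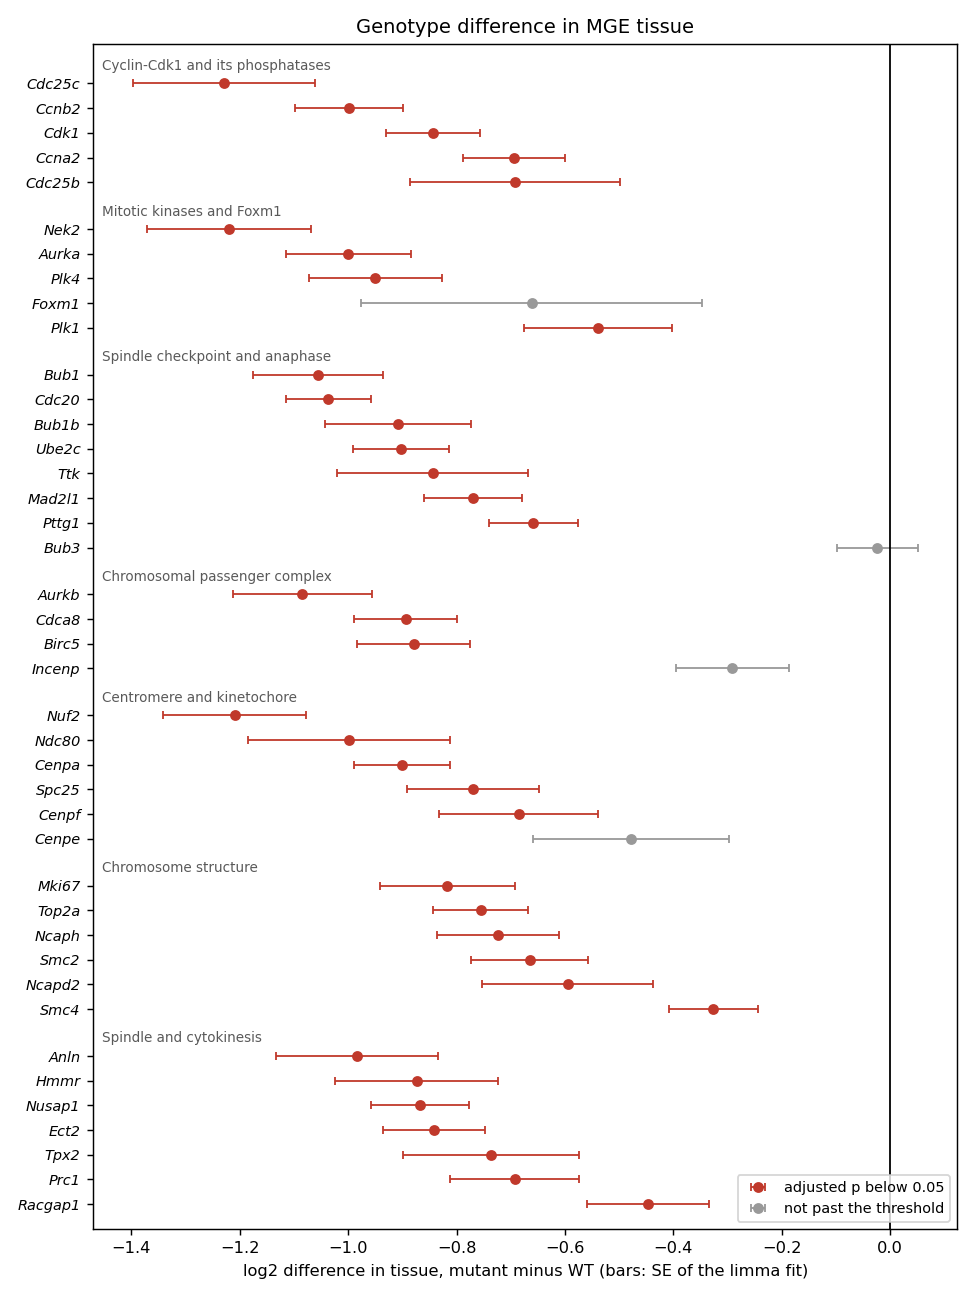
Difference in tissue (log2, mutant minus WT, x axis) of each of the 41 members, grouped by role (y axis), with bars for its standard error (SE) from limma; red points have an adjusted p below 0.05 and grey points do not. All points lie left of 0, from −1.23 for Cdc25c to −0.02 for Bub3, and 4 are grey.

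All 5 measured genes of cyclins, Cdk1 and its phosphatases fell in mutant tissue, with a median of −0.84. Cdc25c, a phosphatase that activates Cdk1 at mitotic entry, had deposited signals of 325 in the WT tissue array, 144 and 144 in the mutant tissue arrays, 215 in cultured WT cells and 244 in cultured mutant cells. Mutant tissue was the low group, and both cultures lay between it and WT tissue. The tissue difference of −1.23 ± 0.17 (SE) was the largest of the set (2.35-fold, adjusted p = 0.000431). Cdk1, the kinase itself, read 2287 in the WT tissue array, 1281 and 1186 in the mutant tissue arrays, 2216 in cultured WT cells and 2521 in cultured mutant cells. It fell by 0.84 ± 0.09 in tissue (adjusted p = 5.95e-05), and the cultures stood near the WT tissue level. Ccnb2, a B-type cyclin, fell by 0.998, Ccna2, which acts in S phase and G2, by 0.70, and Cdc25b, a phosphatase that starts Cdk1 activation, by 0.69 (adjusted p = 4.67e-05, 0.000404 and 0.0318).

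Among mitotic kinases 4 of 4 fell, and the transcription factor Foxm1 did not pass. Nek2, a kinase of centrosome separation, had deposited signals of 483 in the WT tissue array, 231 and 204 in the mutant tissue arrays, 254 in cultured WT cells and 358 in cultured mutant cells. WT tissue was the highest array and the mutant tissue arrays the lowest, with WT culture close above them. The tissue difference was −1.22 ± 0.15 (adjusted p = 0.000202), although the mean over all its named probe sets differed by −0.27 (adjusted p = 0.46). That mean includes a probe set below the intensity cutoff, which differed by 1.29, while the other 2 above it differed by −0.82 and −0.31. Aurka, which builds the spindle poles, read 796 in the WT tissue array, 402 and 427 in the mutant tissue arrays, 615 in cultured WT cells and 656 in cultured mutant cells, a difference of −0.9997 ± 0.12 in tissue (adjusted p = 0.000126). Averaged with its other probe set, which lies below the cutoff, the difference was −0.73 (adjusted p = 0.19). Plk4, the kinase of centriole duplication, fell by 0.95, and Plk1, which acts from mitotic entry to cytokinesis, by 0.54 (adjusted p = 0.000277 and 0.0193). Foxm1, an activator of G2 and mitosis genes, had signals of 96.2 in WT tissue and 77.5 and 49.98 in mutant tissue, a difference of −0.66 ± 0.31 (adjusted p = 0.19, 95% interval −1.35 to 0.02). Its mutant arrays lay 0.65 apart, the widest gap of any member. The other Foxm1 probe sets above the cutoff differed by −0.74 and −0.99, with both mutant arrays below WT in each.

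Of 8 genes of the spindle checkpoint and anaphase, 7 fell. Cdc20, the activator of the anaphase-promoting complex, had signals of 4692 in the WT tissue array, 2258 and 2039 in the mutant tissue arrays, 3143 in cultured WT cells and 3559 in cultured mutant cells. The mutant tissue arrays were the lowest and close together. Its difference of −1.04 ± 0.08 (2.05-fold) had the smallest adjusted p of the set (5.15e-06). Bub1, a checkpoint kinase at kinetochores, read 745 in the WT tissue array, 359 and 388 in the mutant tissue arrays, 400 in cultured WT cells and 463 in cultured mutant cells, and fell by 1.06 ± 0.12 (adjusted p = 0.000116; 0.10 with its probe sets averaged). Here WT culture stood close to mutant tissue. The checkpoint kinase gene Ttk and the checkpoint genes Bub1b and Mad2l1 fell by 0.84, 0.91 and 0.77. Ube2c, the ubiquitin-conjugating enzyme of the anaphase-promoting complex, fell by 0.90, and Pttg1, the securin that holds separase inactive, by 0.66 (adjusted p = 4.08e-05 and 0.000233).

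Bub3, a checkpoint protein, was the exception in this group. Its deposited signals were 2796 in the WT tissue array, 2604 and 2454 in the mutant tissue arrays, 2508 in cultured WT cells and 2667 in cultured mutant cells. After normalization WT culture was its lowest array, −0.15 (log2) from WT tissue. The tissue difference was −0.02 ± 0.08 (adjusted p = 0.87, 95% interval −0.19 to 0.14), an interval that leaves out the median difference of the set.

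The chromosomal passenger complex joins the kinase Aurkb to Incenp, Birc5 and Cdca8 on chromosomes and the central spindle, and 3 of these 4 genes fell in mutant tissue. Aurkb had deposited signals of 614 in the WT tissue array, 309 and 295 in the mutant tissue arrays, 689 in cultured WT cells and 818 in cultured mutant cells. The mutant tissue arrays were the lowest, and both cultures exceeded WT tissue. It fell by 1.08 ± 0.13 in tissue (2.12-fold, adjusted p = 0.000151). Cdca8, also called borealin, read 1553 in the WT tissue array, 852 and 812 in the mutant tissue arrays, 1228 in cultured WT cells and 1377 in cultured mutant cells, and fell by 0.89 ± 0.10 (adjusted p = 7.40e-05). Birc5, or survivin, fell by 0.88 (adjusted p = 0.000151). Incenp, the scaffold of the complex, differed by −0.29 ± 0.10 and did not pass (adjusted p = 0.083, 95% interval −0.52 to −0.06). Its 3 other probe sets above the cutoff differed by −0.92, −1.03 and −0.22, with both mutant arrays below WT in each. Those at −1.03 and −0.22 had mean levels of 5.17 and 5.15 (log2), close to the cutoff.

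Of 6 kinetochore and centromere genes, 5 fell in mutant tissue. Nuf2 and Ndc80 are partners in the complex that grips microtubules. Nuf2 had deposited signals of 629 in the WT tissue array, 294 and 276 in the mutant tissue arrays, 434 in cultured WT cells and 485 in cultured mutant cells, and fell by 1.21 ± 0.13 (2.31-fold, adjusted p = 8.37e-05). Ndc80 read 234 in the WT tissue array, 116 and 129 in the mutant tissue arrays, 178 in cultured WT cells and 156 in cultured mutant cells, and fell by 0.998 ± 0.19 (adjusted p = 0.00339). For both genes the cultures lay between mutant and WT tissue. Cenpa, the histone variant that marks centromeres, read 1946 in the WT tissue array, 1027 and 1019 in the mutant tissue arrays, 1373 in cultured WT cells and 1450 in cultured mutant cells. It fell by 0.90 ± 0.09 (adjusted p = 4.11e-05), while the mean with its other probe sets, 1 of them below the cutoff, differed by −0.60 (adjusted p = 0.19). Spc25, a further part of the Ndc80 complex, fell by 0.77, and Cenpf, a large kinetochore and spindle matrix protein, by 0.69. The other Cenpf probe sets above the cutoff differed by −0.10 and −0.26 in tissue, with both mutant arrays below WT only in the latter. The kinetochore motor Cenpe differed by −0.48 ± 0.18 and did not pass (adjusted p = 0.099). Its other probe set differed by −0.91, with both mutant arrays below WT. For Spc25, Cenpf and Cenpe the WT culture array lay below both mutant tissue arrays.

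Chromosome structure genes all fell, 6 of 6, but with the smallest group median, −0.69. Smc4, a core subunit of condensin, had deposited signals of 2128 in the WT tissue array, 1611 and 1640 in the mutant tissue arrays, 1954 in cultured WT cells and 1886 in cultured mutant cells. Mutant tissue was again lowest, by a small margin, and the difference of −0.33 ± 0.08 (1.25-fold, adjusted p = 0.0186) was the smallest among members called. The other Smc4 probe sets, both above the cutoff, differed by −0.68 and −0.52 in tissue. In culture they differed by 0.37 and 0.20, against −0.02 for the probe set used. Smc2, the partner of Smc4, fell by 0.67, and the condensin subunits Ncaph and Ncapd2 by 0.72 and 0.60. Top2a, the topoisomerase that untangles sister chromatids, fell by 0.76, and Mki67, which coats mitotic chromosomes, by 0.82.

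All 7 spindle and cytokinesis genes fell, with a median of −0.84. Ect2, the exchange factor that activates RhoA for the contractile ring, had deposited signals of 1449 in the WT tissue array, 825 and 810 in the mutant tissue arrays, 1071 in cultured WT cells and 1364 in cultured mutant cells. It fell by 0.84 ± 0.09 in tissue (adjusted p = 0.000103), with mutant culture close to WT tissue. The ring scaffold Anln fell by 0.98, the spindle proteins Hmmr, Nusap1 and Tpx2 by 0.87, 0.87 and 0.74, the midzone protein Prc1 by 0.69, and Racgap1, the partner of Ect2, by 0.45.

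Other probe sets of these genes mostly moved the same way. Named probe sets numbered 99, and 30 members had more than 1. Of 44 other probe sets above the intensity cutoff, from 28 genes, 42 differed downwards in tissue, and in 38 both mutant arrays lay below WT. The 2 that differed upwards were a probe set of Ttk (0.25) and a probe set of Ncapd2 (0.12), both chosen for mention after their values were seen. Among all genes tested, each by its brightest probe set, both mutant arrays lay below WT for 40.2%. The share over all probe sets was not computed.

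In culture, the mutant array was not lower. Only 1 array stood on each side, so no test was made. The median difference over the 41 members, mutant minus WT, was 0.17 on the log2 scale (0.01 for all genes tested), with a range from −0.19 for Ndc80 to 0.61 for Pttg1. The mutant culture lay above the WT culture for 35 of 41 members, against 51.7% of all genes tested, and for 30 of 41 with probe sets averaged. Of the 44 other probe sets above the cutoff, 27 were higher in mutant culture, with no share over all probe sets computed. A difference of at least 2-fold was reached by 0 of 41 members in either direction, against 1.85% of all genes higher and 1.83% lower. Pttg1 had deposited signals of 2222 in WT culture and 3386 in mutant culture, and Bub1b of 196 and 251. The other Pttg1 probe sets above the cutoff differed by 0.24 and −0.93 in culture. The one that was lower had a mean level of 4.99 (log2), close to the cutoff. Besides Ndc80, the members that lay lower in mutant culture were Plk1, Incenp, Smc4, Prc1 and Anln, with differences from −0.11 to −0.01 on the log2 scale.

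**Figure D3:**
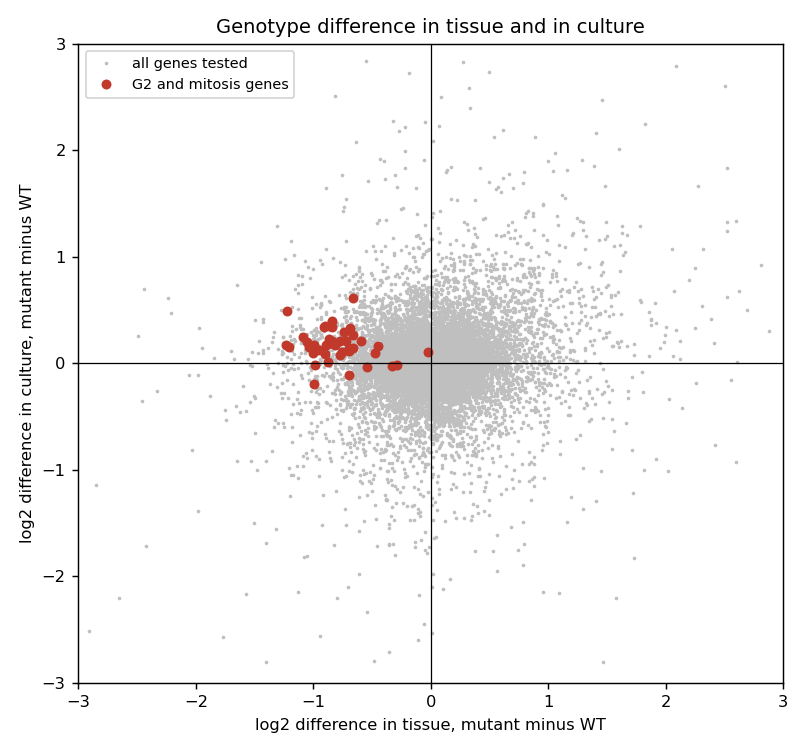
Genotype difference in tissue (x axis) against that in culture (y axis), both log2, mutant minus WT, for each gene tested (grey) and the 41 G2 and mitosis genes (red); 27 genes lie outside the axes. The red points sit left of 0, around −0.84 in tissue, and mostly just above 0, around 0.17, in culture.

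The test of the difference between preparations bears on this directly. In a model of the 4 groups, the culture genotype difference exceeded the tissue genotype difference for 41 of 41 members, against 5507 of 11063 genes tested. It passed (limma, adjusted p below 0.05) for 29 of 41 members, with 0 in the other direction. The background was 2.21% of genes in the first direction and 2.27% in the other. An unadjusted p under 0.05 was found for 37 of 41 (19.6% of all genes). The median of this difference of differences was 0.99 on the log2 scale. Pttg1 had the smallest adjusted p (1.27 ± 0.12, adjusted p = 0.000977), followed by Cdc20 (1.19 ± 0.12, adjusted p = 0.00119). The Pttg1 value is that of its brightest probe set. Its other probe sets above the cutoff differed by −0.81 and −0.83 in tissue, and by 0.24 and −0.93 in culture. Nek2 had the largest value (1.71 ± 0.23, adjusted p = 0.00429), also by its brightest probe set. The other Nek2 probe sets above the cutoff differed by −0.31 and −0.82 in tissue, and by 0.10 and −0.47 in culture. Among the genes not called were Ndc80 (0.81 ± 0.28, adjusted p = 0.14), Bub3 (0.13 ± 0.11, adjusted p = 0.57), Incenp (0.28 ± 0.16, adjusted p = 0.36) and Smc4 (0.30 ± 0.12, adjusted p = 0.20). This test uses the tissue arrays again, so it is not independent of the tissue result, and it assumes that single arrays vary like the mutant tissue pair. Its calls fell to 0 of 41 without an intensity trend (32 with an unadjusted p under 0.05), with dim genes tested too (30) and with probe sets averaged (29), a setting that brought Nek2 to 0.44 and Aurka to 0.34. Without the trend, 0 of 11063 genes were called either way. With dim genes, 393 of 18193 genes were higher and 191 lower, and with probe sets averaged 0 of 9853 were higher and 4 lower.

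Across both preparations, 0 of 41 members passed in either direction in limma, against 0.253% of all genes called lower and 0.814% called higher. An unadjusted p under 0.05 was found for 9 of 41, against 13.0% of all genes. The median of −0.39 joins the opposite signs of tissue and culture.

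Set against WT tissue, the 4 other arrays were all lower in median, in different degrees. The median difference over the members was −0.80 and −0.89 for mutant tissue, −0.50 for WT culture and −0.39 for mutant culture, while the medians of all genes tested lay between −0.0019 and 0.016. Mutant culture was below WT tissue for 36 of 41 members (49.0% of all genes). WT culture was below WT tissue for 38 of 41 members (50.1% of all genes tested), and by at least 2-fold for 6 of them (6.78% of all genes). None was at least 2-fold higher, against 9.73% of all genes. This is 1 array against 1, with no test. Nusap1 was lowest relative to WT tissue, with deposited signals of 1776 in WT tissue and 628 in WT culture, followed by Bub1b (491 and 196) and Cdc25b (186 and 74.0). At the other end Aurkb, Mad2l1 and Birc5 were slightly higher in WT culture than in WT tissue, by 0.13, 0.12 and 0.04 on the log2 scale.

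**Figure D4:**
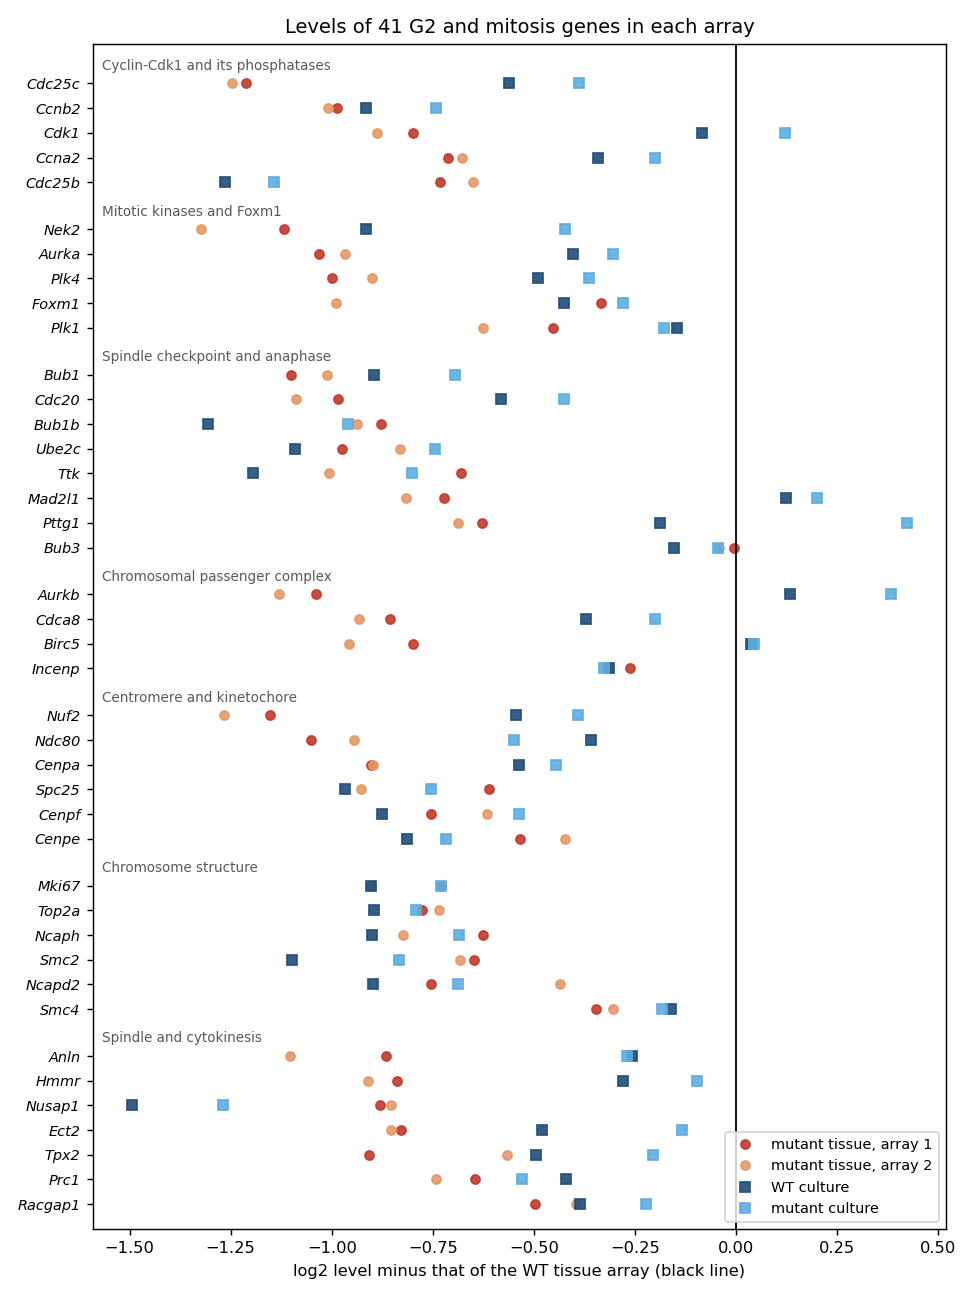
Level of each of 41 members in each array, as log2 minus the level in the WT tissue array (black line; x axis), with members grouped by role (y axis); circles are mutant tissue and squares are culture. Circles lie left of the line for every member, and squares spread from −1.49 for Nusap1 in WT culture to 0.42 for Pttg1 in mutant culture.

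Within the mutants, many of the genes were higher in culture than in tissue. Of 41 members, 19 rose and 1, Nusap1, fell (limma, 2 tissue arrays against 1 culture array), where 21.6% of all genes tested rose and 21.8% fell. An unadjusted p under 0.05 was found for 23 (50.6% of all genes). The culture array lay above both tissue arrays for 28 members (44.1% of all genes) and below both for 8 (43.9%). The median difference, culture minus tissue, was 0.36 on the log2 scale. Aurkb rose most (1.47 ± 0.12, adjusted p = 7.71e-06), then Pttg1 (1.08 ± 0.08, adjusted p = 3.39e-06), Mad2l1 (0.97 ± 0.09, adjusted p = 1.31e-05) and Cdk1 (0.96 ± 0.08, adjusted p = 1.08e-05). Of the chromosomal passenger genes 3 of 4 rose, while of the chromosome structure genes 0 of 6 passed in either direction, with a median of 0.00 and 0 of 6 with an unadjusted p under 0.05. That difference between groups was not tested. Over both genotypes together, 3 members were higher in culture (Aurkb, Mad2l1 and Birc5) and 2 lower (Nusap1 and Cdc25b), against 19.6% and 19.2% of all genes, and 9 had an unadjusted p under 0.05 (47.7%). With either mutant tissue array left out, 0 were higher; 2 were lower without the first and 1 without the second. In mutants, 0 members were called with dim genes tested too, where 616 of 18193 genes were higher and 113 lower. Without an intensity trend 12 members were higher and 0 lower, where 1350 of 11063 genes were higher and 1332 lower.

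Other cell cycle genes were set beside the members. Of all genes tested in tissue, 6.70% were called lower and 8.59% higher. Of 78 further mitotic genes tested, 56 fell and 1 rose in mutant tissue (median −0.77), led by the spindle gene Spag5 (−1.39 ± 0.22, adjusted p = 0.00122) and the cohesin protector Sgo2a (−1.37 ± 0.15, adjusted p = 8.64e-05). The 1 that rose was Zwint, a kinetochore gene (0.48, adjusted p = 0.00369). Of 44 genes of S phase and DNA replication, 36 fell and 0 rose (median −0.75), with Pole, the catalytic subunit of a replicative polymerase, and Fen1, a flap endonuclease, lowest (−1.28 and −1.26). Among 15 G1 cyclins, Cdks and inhibitors the median was −0.36, with 7 lower and 1 higher. The higher one was the Cdk inhibitor Cdkn1a (0.85, adjusted p = 0.0113), and Ccnd2, a G1 cyclin, fell by 0.69.

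Subunits of the anaphase-promoting complex and of cohesin, which are not restricted to dividing cells, differed little in tissue. Of 13 of the former, 0 fell and 1 rose (Fzr1, the activator used after mitosis, 0.63, adjusted p = 0.0211; median −0.05). Of 10 of the latter, 1 fell (Stag2, −0.31, adjusted p = 0.0443; median −0.09). Such single calls lie near the shares of all genes tested, 6.70% lower and 8.59% higher. Among 14 DREAM, MuvB and NF-Y regulators, 4 fell and 1, Cdkn1a, rose (median −0.28). The pocket protein gene Rbl1, a DREAM subunit, fell by 0.88 and the CHR-binding subunit Lin54 by 0.78 (adjusted p = 0.000522 and 0.00301). In culture the medians of these 6 lists lay between 0.03 and 0.17.

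Some lists of cell type markers also differed between genotypes in tissue, and others did not. Of all genes tested there, 8.59% rose and 6.70% fell. Of 14 postmitotic neuron markers 11 rose and 1, Elavl4, fell in mutant tissue (median 0.80), with Rbfox3, a nuclear protein of mature neurons, up by 2.12 ± 0.16 (adjusted p = 4.41e-06). Their summed level was 16132 in WT tissue, 21711 and 22300 in the mutant tissue arrays, and 16165 and 16806 in cultured WT and mutant cells. None of the 14 was at the floor in every array. Of 11 progenitor and radial glia markers tested, 4 rose and 0 fell in mutant tissue (median −0.04), and their summed level was 25515 in WT tissue against 28097 and 28300. All 4 oligodendrocyte precursor markers tested rose, as did 2 of 4 astrocyte markers tested. Summed levels, taken over all named markers, tested or not, were 1159 against 2255 and 2202 for the 5 of the former. For the 6 of the latter they were 1878 against 2993 and 2943. Of the microglial, endothelial and pericyte markers tested, 0 of 5, 0 of 4 and 0 of 4 passed, with 0, 1 and 1 at an unadjusted p under 0.05. The part of these marker differences in the lower levels of G2 and mitosis genes was not tested.

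**Figure D5:**
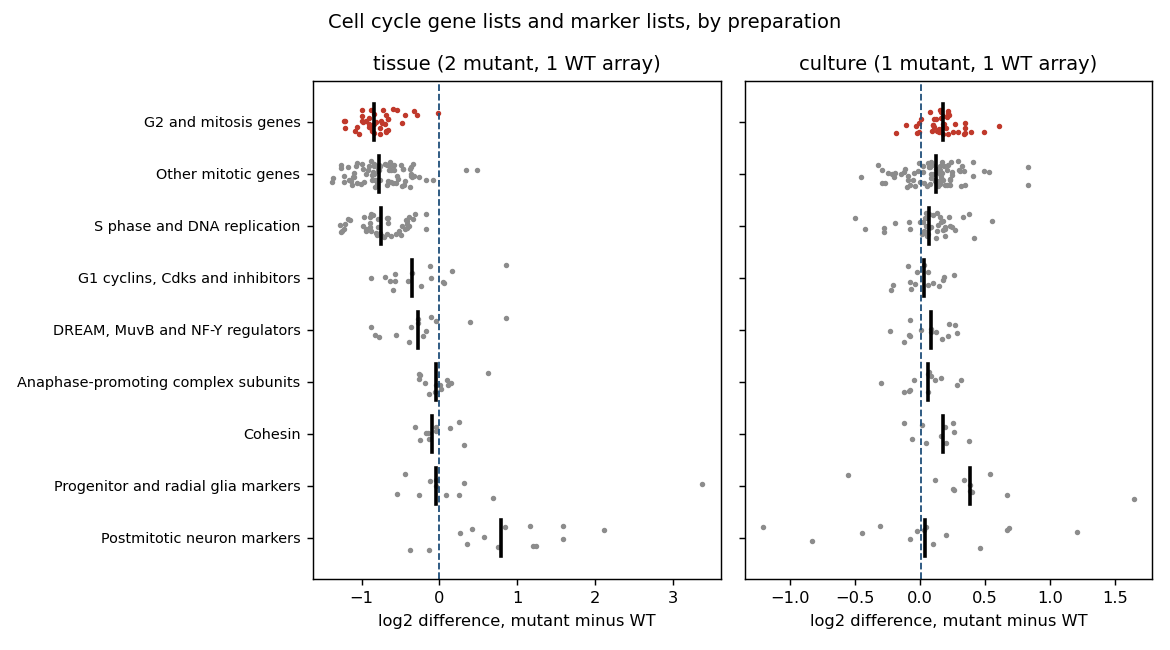
Genotype difference (log2, mutant minus WT, x axis) of each gene tested in 9 lists (y axis), in tissue (left) and in culture (right); points are genes, black bars are list medians and the dashed line is the median of all genes tested. In tissue the upper 3 lists have medians from −0.84 to −0.75 and neuron markers 0.80, while in culture the medians of those 3 lists lie between 0.07 and 0.17.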

How the data were processed

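RNA was measured on 5 Affymetrix mouse arrays in 4 groups. The authors deposited linear intensity values for 45101 probe sets. Per the deposited values, each array's mean was 150.0 after trimming 2% at each end. The software and build are not given in the sources used here. Array medians spanned 0.183 (log2), over a limit of 0.1, so arrays were quantile normalized. Values under the pooled 20th percentile (signal 5.15) were set to it before log2. Of the probe sets, 34958 had 1 symbol in the platform annotation, 932 several and 9211 none. The 64 control probe sets were not tested. Genes with a mean above the pooled median (signal 27.8) were tested in R 4.3.3 with limma 3.58.1 (eBayes with a trend on mean level) and Benjamini-Hochberg adjustment over 11063 genes. Residual degrees of freedom were 1 (tissue, mutants, interaction) or 2, and prior ones 10.9, 9.28, 8.57 or 5.95. Named members were the 8 with the largest tissue difference and the brightest of each role. Members and lists were chosen with earlier results of these data known. Alternatives were the deposited scaling, other filters and floors, log2(value + 16), averaged probe sets, no trend, and leaving out either mutant tissue array. The number of arrays limits precision.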

Additional observations from a re-analysis of the deposited data

Results flagged for a closer look

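The genotype difference was not the same in culture as in tissue by the interaction test of limma for 29 of 41 G2 and mitosis genes tested, and likewise for 34 of 78 other mitotic genes, 23 of 44 S phase genes and 2 of 15 G1 genes, all higher in culture. Of all genes tested, 2.21% were called in this direction and 2.27% in the other. Among the members described one by one, the difference of differences (log2) was 1.71 for Nek2, 1.40 for Cdc25c, 1.36 for Nuf2, 1.33 for Aurkb and 1.26 for Bub1. It was 1.19 for Cdc20 and for Ect2, 1.10 for Aurka, 1.07 for Cdca8, 1.05 for Cdk1 and 0.99 for Cenpa. The adjusted p-values of these 11 ran from 0.00119 (Cdc20) to 0.0132 (Cdc25c) in limma. The other members described one by one, Ndc80 (0.81, adjusted p = 0.143) and Smc4 (0.30, adjusted p = 0.199), did not pass. These values are those of the brightest probe sets. With probe sets averaged, Nek2 stood at 0.44 and Aurka at 0.34. Each test assumes that single arrays vary like the mutant tissue pair. With a prior variance that ignored the mean level, the interaction test called 0 of 11063 genes in either direction, with 1681 at an unadjusted p under 0.05.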

How the results depend on the processing

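The median over members kept its sign under every alternative run for tissue, culture, both preparations, mutants and the interaction. Only that of the preparation effect, 0.03, crossed 0: it was −0.0493 with probe sets averaged and −0.0562 to −0.0423 with a mutant tissue array left out. With probe sets averaged, medians were −0.73 in tissue, 0.21 in mutants and 0.85 for the interaction. Member calls were then 21 lower in tissue, 10 higher in mutants, 1 higher for the preparation effect and 0 for the interaction. Of 9853 genes in that setting, 1389 were higher in mutants and 1457 for the preparation effect. For the interaction 0 were higher and 4 lower. Aurka in culture turned to −0.38 with probe sets averaged. Without an intensity trend, calls were 0 in tissue, for the interaction and for the preparation effect either way, and 12 higher and 0 lower in mutants. With dim genes tested, all of these counts were 0. For the preparation effect, 1661 of 11063 genes were higher and 1627 lower without the trend. With dim genes, 963 of 18193 were higher and 931 lower for that effect, and 393 higher and 191 lower for the interaction. Over all genes tested in tissue, 950 higher and 741 lower calls became 0 and 2 without the trend, 11 and 378 with dim genes, and 269 and 220 with probe sets averaged. With the deposited scaling 4 members were lower for the preparation effect, where 2268 of 11064 genes were lower. With either mutant tissue array left out, medians ranged from −0.89 to −0.80 in tissue, −0.3405 to −0.3085 across both preparations, 0.2756 to 0.3604 in mutants and 0.9919 to 1.068 for the interaction. The preparation effect then had 1 to 2 members lower and 0 higher. Tissue, mutants and interaction had no test there, since no residual degree of freedom was left. No paired analysis was made, because the labels do not say which arrays share embryos. Brightness over background limits dim genes such as Foxm1.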
